A study of Homo sapiens with 9 samples.

Results

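The MYC and PVT1 locus lies at 8q24.21, and its peaks were chosen by position, from chr8:128700000-129120000 on hg19, by the place of the summit in the deposited lists. The choice was made with an anti-HA peak inside PVT1 already seen, so that peak's values are a description. The window of 420 kb held 9 of the 26201 peaks on the assembled chromosomes. Of these, 5 came from the H3K4me3 list, 3 from the anti-HA list of tagged cells and 1 from the anti-HA list of untagged cells. Start sites were taken at 128748315 for MYC and 128806779 for PVT1, 58.5 kb apart, and both genes read toward higher coordinates.

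The data are CUT&Tag profiles of A549, a human lung adenocarcinoma cell line, in 3 groups of 3 libraries. Tagged cells carry an HA epitope inserted at the 5' end of their own BAZ2B gene and were profiled with an antibody to HA or to H3K4me3. Wild-type A549 cells without the tag were profiled with the same HA antibody and give the background of that antibody. Each group has 1 peak list, which holds the rows of 1 library kept where a further replicate also had the peak, so there is no replicate error for any value. The labels do not say whether the tagged line is 1 clone, nor to which libraries, if any, the siRNA transfection in their protocol belongs.

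MYC encodes a transcription factor that drives growth and cell division, and its promoter holds a guanine-rich element that is a textbook case of a G-quadruplex, a folded form of DNA. PVT1 is a long non-coding RNA gene downstream of MYC that hosts several microRNAs and is often gained together with MYC in cancer. BAZ2B is a bromodomain protein of ISWI-type chromatin remodelers, and H3K4me3 is a histone mark of active promoters. In the RefSeq gene order, CASC11 precedes MYC, and MIR1204, LINC02912, MIR1205, MIR1206 and MIR1207 lie within PVT1. No base sequence is shown for this locus.

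A peak's score in these lists is a fold enrichment over the peak caller's background estimate. The fold and the −log10 p of a peak together fix how many fragments lay over its summit and what background was set against them. All 26201 peaks gave a whole number of fragments, with the deposited −log10 p met within 0.001. Fragments are counts in 1 library, not scaled to depth. Their exact 95% Poisson intervals cover counting error only and not the choice of the highest point of a peak.

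The MYC start carried the broadest anti-HA peak of the locus, with many fragments and a low fold. In tagged cells, 1 peak at chr8:128748095-128751342 covered 3248 bp, and 87 fragments (95% interval 69.7 to 107) lay over its summit. The summit was 490 bp downstream of the MYC start. This was the 4th widest of the 6794 tagged-cell peaks, and the 416th by fragments. By fold enrichment, 3.24, it was only 6742nd. The background set against it was 26.2 fragments, the 10th highest of the list, where the median was 4.70 for background and 51.0 for fragments. Fold is the quotient of fragments and background, each plus 1, so a high count over a high background gave the low value. The 4 widest tagged-cell peaks, this one included, had a median fold of 3.47.

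H3K4me3 at the MYC start was split into a pair of peaks 203 bp apart. The first, chr8:128747336-128748919, was 1584 bp wide with 86 fragments (68.8 to 106), and the MYC start lay inside it. The second, chr8:128749123-128751343, was 2221 bp wide with 79 fragments (62.5 to 98.5), and its summit was 1.82 kb into the gene. Their folds were 2.94 and 2.68, lower than those of all but 0.975% and 0.605% of H3K4me3 peaks, over backgrounds of 28.6 and 28.8 fragments. Both thus had the same form as the anti-HA peak, a wide peak of ordinary to high count over a background higher than 98.9% and 99.0% of the list.

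The anti-HA peak of tagged cells bridged the gap between the H3K4me3 peaks and leaned into the gene. It shared 825 bp with the first (52.1% of that peak) and 2220 bp with the second, of whose 2221 bp it left 1. Of its length, 93.2% lay downstream of the MYC start and 220 bp upstream. The joined H3K4me3 stretch of 4008 bp reached 979 bp upstream of the start, and 75.6% of it lay downstream. The right edges of the anti-HA peak and the H3K4me3 stretch were 1 bp apart, so nearly the whole difference in extent was on the upstream side. The anti-HA summit was 119 bp from the first H3K4me3 summit and 1332 bp from the second.

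**Figure D1:**
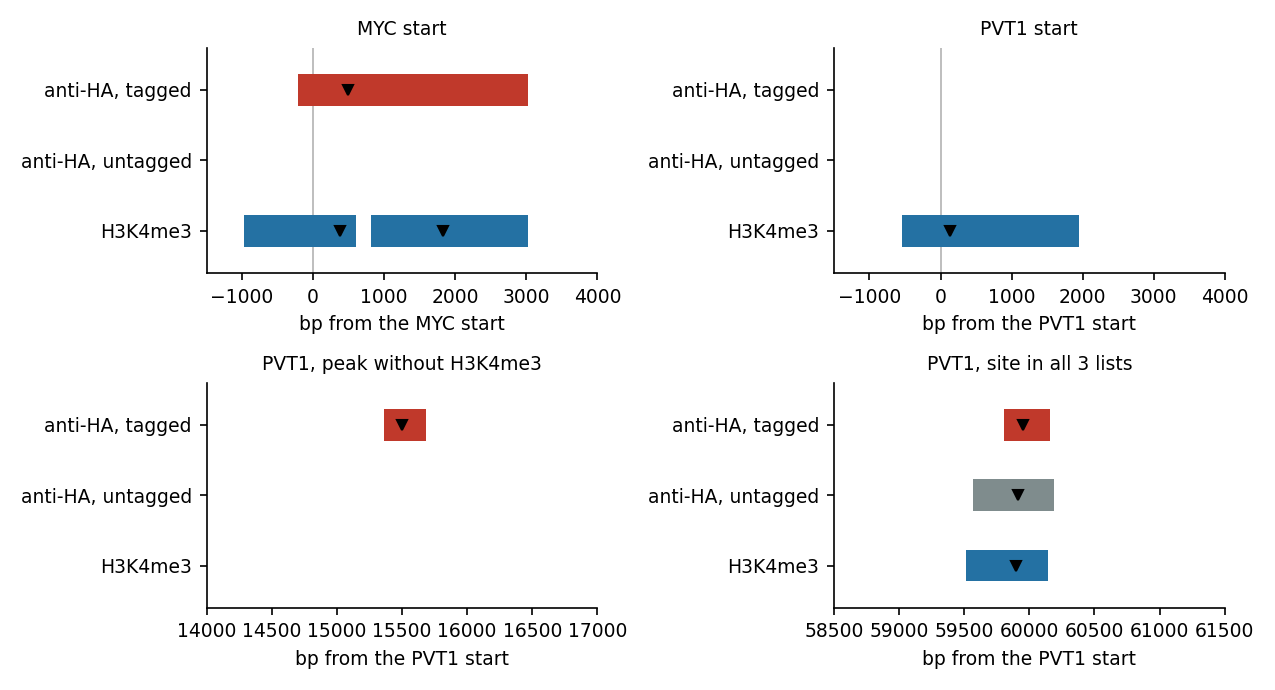
Extent of the peaks at 4 sites, in bp from the MYC or PVT1 start, with 1 row per list; bars are peaks and triangles are summits. At the MYC start the tagged-cell peak of 3248 bp spans both H3K4me3 peaks, while the PVT1 start has H3K4me3 and no listed anti-HA peak.

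Anti-HA fragments at the MYC start were as many as H3K4me3 fragments, which was uncommon in these lists. The ratio of tagged-cell anti-HA to H3K4me3 fragments was 1.01 (0.742 to 1.38, exact interval for counting error) against the first H3K4me3 peak and 1.10 (0.803 to 1.51) against the second. Over the 6556 sites where 1 tagged-cell peak met 1 H3K4me3 peak, the median ratio was 0.522 (interquartile range 0.405 to 0.628), and 35 of those sites reached the MYC value. Where the H3K4me3 peak was at least as wide as the second MYC peak, the median was 0.594 over 277 sites, and 2 reached it. Where the H3K4me3 background was at least that of the first MYC peak, the median was 0.575 over 94 sites, and the highest was 0.912. Among the 59 tagged-cell peaks that, like this one, lay over 2 or more H3K4me3 peaks, the median against the higher of them was 0.619, and 4 of 59 reached the MYC value, MYC included. Backgrounds at the MYC start stood in a higher ratio too. It was 0.915 and 0.909 against the first and second H3K4me3 peak, where the 6556 sites had 0.509. The lists differ in depth: the lowest background, at which 141 tagged-cell and 547 H3K4me3 peaks stood, was 0.248 and 0.485, a ratio of 0.511. So only the place of a ratio among the others can be read, and no test was made.

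Untagged cells had no listed anti-HA peak at the MYC start. The nearest on either side were 67.3 kb upstream and 118 kb downstream. Among the 447 tagged-cell peaks with at least 87 fragments, 195 (43.6%, exact 95% interval 39.0 to 48.4%) overlapped a peak of untagged cells, and all 447 overlapped H3K4me3. Over the whole tagged-cell list these shares were 28.7% and 99.0%. By other measures the share was below that of 43.6%, on fewer peaks. Of those with no higher fold than the MYC peak, 16 of 53 (30.2%, 18.3 to 44.3%) had an untagged-cell peak. So did 1 of the 4 at least as wide (0.631 to 80.6%) and 2 of the 10 with at least its background (2.52 to 55.6%). Of the 59 over 2 or more H3K4me3 peaks, 10 (16.9%) did. A missing entry means that the listed library had no peak there that a further replicate shared. A peak called only in the other replicates would be missing too. The untagged library had 3 numbered peaks, left out of the deposited list, somewhere between 128681556 and 128866346, a stretch that holds both gene starts, and their places are not known.

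**Figure D2:**
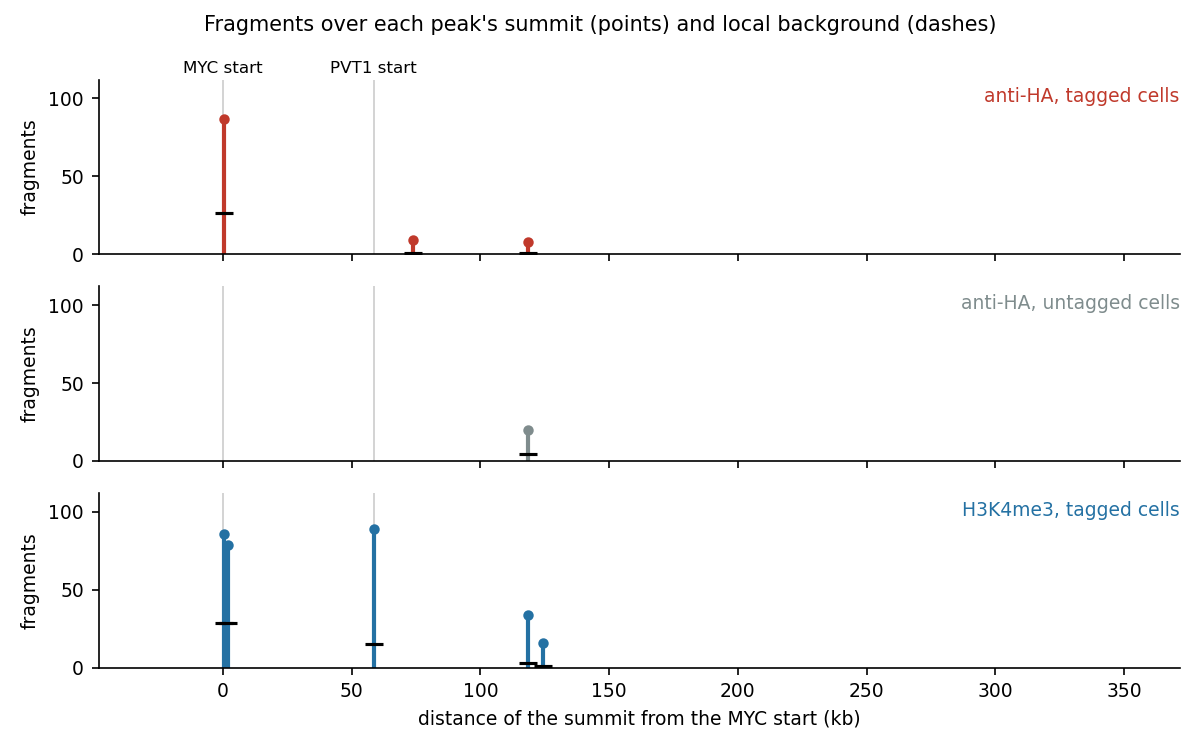
Fragments over the summit of each of the 9 peaks (points) and the background set against them (dashes), by distance from the MYC start in kb, with 1 panel per list. The tagged-cell peak at MYC has 87 fragments, and those inside PVT1 have 9 and 8.

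The PVT1 start had about as many H3K4me3 fragments over its summit as the MYC start, and no listed anti-HA peak in either line. The H3K4me3 peak, chr8:128806232-128808727, was 2496 bp wide, the 206th widest of 17018, and held 89 fragments (71.5 to 110) with its summit 127 bp downstream of the start. It ran from 547 bp upstream to 1949 bp downstream, so 78.1% of it lay on the gene side. Its fold was 5.46 over a background of 15.5 fragments, and its −log10 q of 34.8 was the highest of the locus. The fragment count did not set it apart from the first MYC peak, with 86, since their intervals overlapped.

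How often H3K4me3 peaks like it carried an anti-HA peak in tagged cells depended on the measure compared. Of the 160 with at least its width and its fragments, 125 (78.1%, 70.9 to 84.3%) overlapped a tagged-cell peak and 35 did not. Of the 2780 with fragments within 10% of its count at any width, 50.0% (48.1 to 51.8%) did. Of the 102 with at least its width and its −log10 q, 91 (89.2%, 81.5 to 94.5%) did. With at least its −log10 q at any width, 55.1% of 10235 did. Of the 185 with at least its width and a fold no higher, 65.9% (58.6 to 72.7%) did, and of the 1864 with a fold no higher at any width, 27.2% (25.2 to 29.3%) did. Across these classes, the share with an untagged-cell peak ran from 10.8% of the 1864 to 46.1% of the 102. For classes drawn the same way from the first MYC H3K4me3 peak, the tagged-cell share ran from 25.1% of 167 to 73.3% of 2323. The lowest was by a fold no higher and the highest by width and fragments. The tagged library had 1 numbered peak that was not kept between 128751342 and 128822143, a stretch of 70.8 kb that includes the PVT1 start. Whether it lay at the start, and so was called there in 1 replicate, was not tested.

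**Figure D3:**
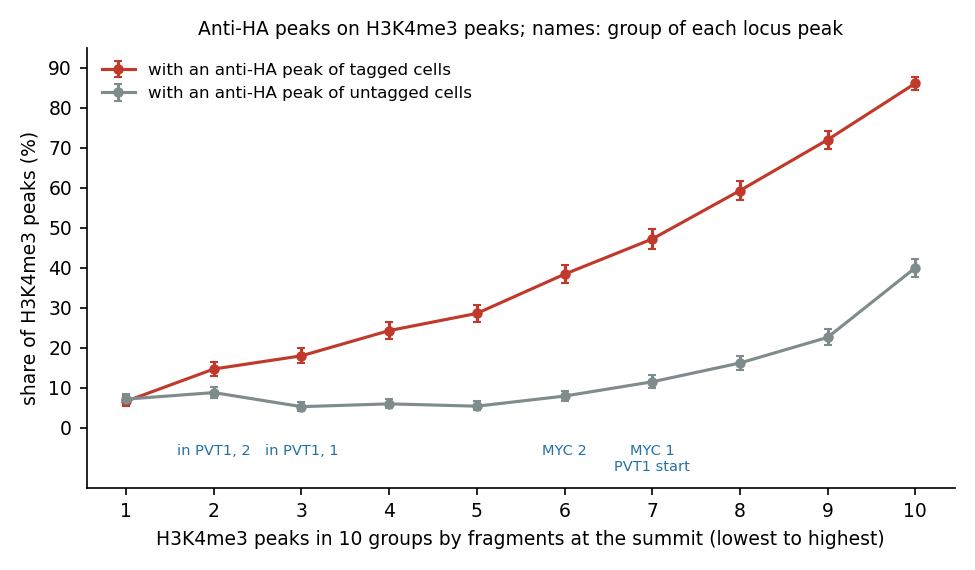
Share of H3K4me3 peaks (%, with exact 95% intervals) that overlapped an anti-HA peak of tagged or untagged cells, in 10 groups of H3K4me3 peaks ordered by fragments at the summit, with the group of each H3K4me3 peak of the locus named under the points. The first MYC peak and the PVT1 start fall in group 7, where the shares were 47.2% and 11.5%.

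Inside PVT1, tagged cells had a small anti-HA peak without H3K4me3. It lay at chr8:128822143-128822459, 317 bp wide, with its summit 15.5 kb downstream of the PVT1 start. Only 9 fragments (4.12 to 17.1) lay over the summit, against a background of 0.496, which gave a fold of 6.68 and a −log10 q of 7.29. Its fold was thus 2.06 times that of the MYC peak on 0.103 times the fragments. The nearest H3K4me3 peak, the one at the PVT1 start, ended 13.4 kb away, and the nearest peak of untagged cells 43.9 kb away.

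In tagged cells, 69 peaks lay outside H3K4me3, 4 of them on chromosome 8. Of the 69, 57 also overlapped no untagged-cell peak. The median distance of the 69 to H3K4me3 was 19.8 kb, and 39.1% lay nearer to it than the PVT1 peak. The PVT1 peak ranked 2nd of the 69 by fold, 4th by −log10 q and 4th by fragments, a place it shared with the other peaks among the 5 that had 9 fragments. Their median was 5.00 fragments and a fold of 4.81. Of the 48 that were more than 10 kb from H3K4me3, none had more than 9 fragments. Between the H3K4me3 peaks at the PVT1 start and deeper in the gene, the H3K4me3 library had 2 numbered peaks that were not kept, and the untagged stretch with 3 unkept peaks also covers this site. The absence of H3K4me3 and untagged-cell peaks here thus means only that the listed libraries had none that a further replicate shared.

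Deeper in PVT1, 1 site was listed in all 3 groups, and there the fragment count, not scaled to depth, was higher in the untagged than in the tagged library. H3K4me3 covered chr8:128866293-128866924 (632 bp), with 34 fragments (23.5 to 47.5) over a background of 3.11, a fold of 8.52. The untagged-cell peak, chr8:128866346-128866964 (619 bp), had 20 fragments (12.2 to 30.9) over 4.37, a fold of 3.91. The tagged-cell peak, chr8:128866588-128866933 (346 bp), had 8 fragments (3.45 to 15.8) over 0.730, a fold of 5.20. The order of the anti-HA lists by fold was thus the reverse of that by fragments.

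All 3 summits of this site lay within 52 bp, about 59.9 kb downstream of the PVT1 start. The untagged-cell peak shared 91.6% of the H3K4me3 peak and the tagged-cell peak 53.3%. The tagged-cell peak was 0.547 times as wide as the H3K4me3 peak, and 7.34% of the 1 to 1 pairs had a lower value. Its fragments were 0.400 times those of untagged cells (0.152 to 0.948), where the median over 1902 sites with 1 peak of each line was 2.26 and 9.15% were lower. Those counts are not scaled to depth. Divided by the lowest background of each list, a scaling added after seeing the data, the ratio was 0.752 (0.286 to 1.78), an interval that includes equal counts, and only 6 untagged-cell peaks set that lowest value. The tagged-cell peak here had a −log10 q of 4.66 and the untagged-cell peak of 4.78, so neither passes a −log10 q of at least 5. Against H3K4me3, the tagged-cell fragments were 0.235 times (0.0941 to 0.518), against the median of 0.522, with 5.00% lower. By this ratio to H3K4me3 the site stood at the opposite end of the list from the MYC start.

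The last H3K4me3 peak of the locus, chr8:128871958-128872625, lay 5.03 kb further on and had no anti-HA peak. It was 668 bp wide, with 16 fragments (9.15 to 26.0) over 1.02, a fold of 8.43. H3K4me3 peaks with a count within 10% of this carried a tagged-cell peak in 12.5% of 481 cases and an untagged-cell peak in 7.90%. Both H3K4me3 peaks inside PVT1 had folds 2.87 to 3.17 times those at MYC on fewer fragments.

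**Figure D4:**
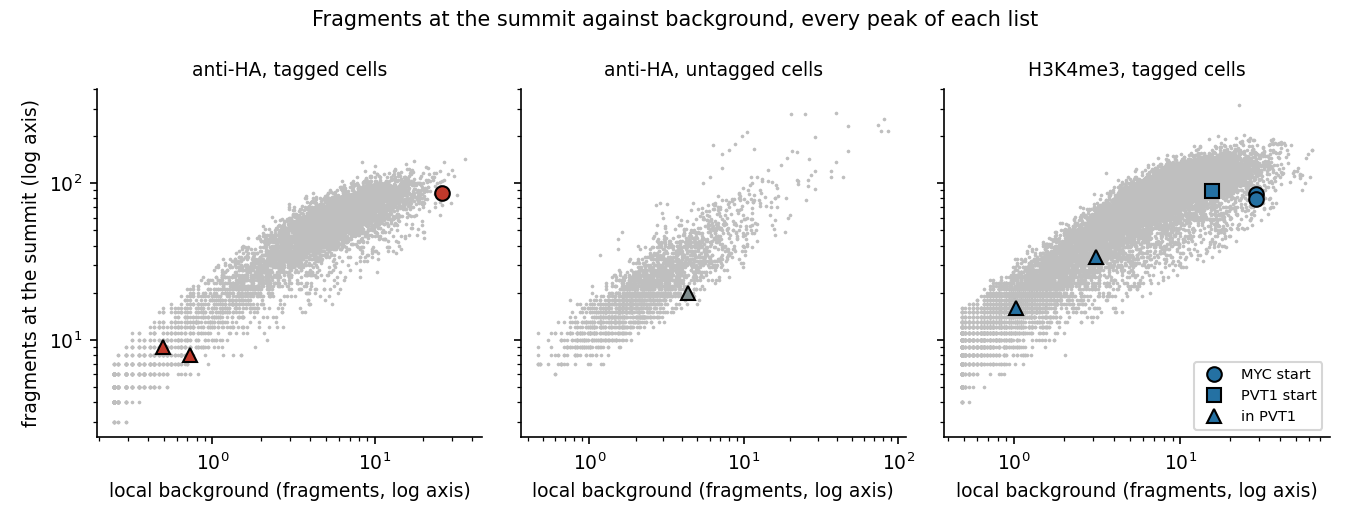
Fragments over the summit against local background (fragments, both axes logarithmic) for every peak of each list (grey), with the locus peaks as large symbols. The MYC peaks lie at the right edge of their lists, with backgrounds of 26.2, 28.6 and 28.8.

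**Figure D5:**
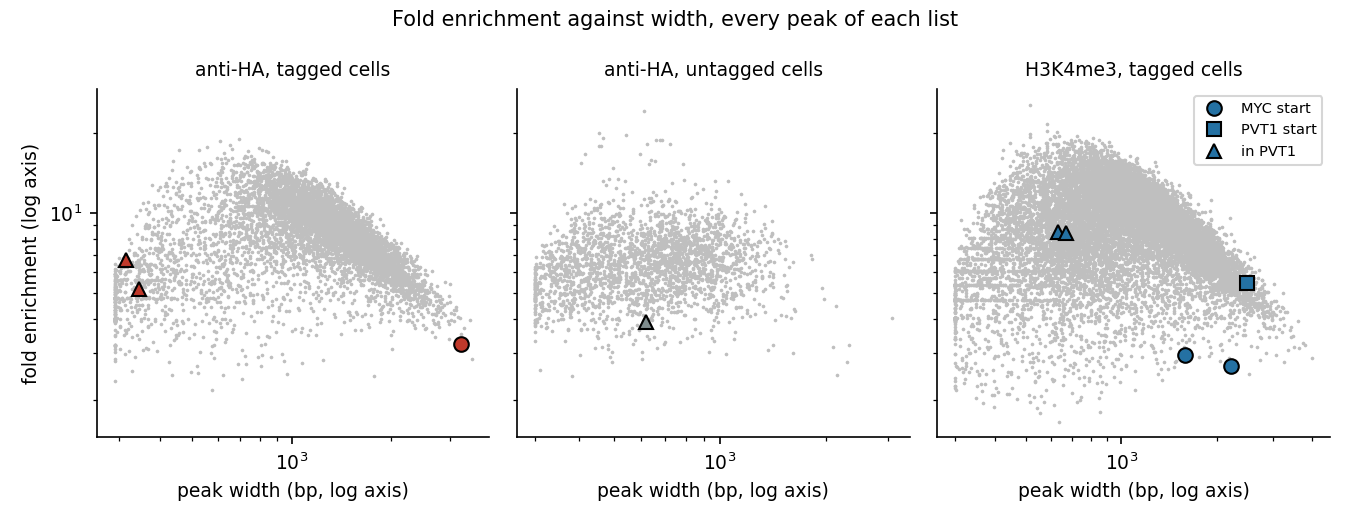
Fold enrichment against peak width in bp (both axes logarithmic) for every peak of each list (grey), with the locus peaks as large symbols. The tagged-cell MYC peak, 3248 bp wide with a fold of 3.24, lies at the wide, low end. The tagged-cell and H3K4me3 peaks inside PVT1 lie among the narrow ones of their lists. The untagged-cell peak there, 619 bp wide, lies near its list's median of 639 bp.

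Counted as peaks, 3 of the 5 H3K4me3 peaks of the locus carried a tagged-cell anti-HA peak, against 39.5% of all 17018, and 1 of 5 an untagged-cell peak, against 13.1%. The 3 include both MYC peaks under a single anti-HA peak. Of the 3 tagged-cell peaks, 2 lay on H3K4me3, against 99.0% of all 6794, and 1 on an untagged-cell peak, against 28.7%. The single untagged-cell peak overlapped both other lists, as did 81.0% of that list for tagged-cell peaks and 93.4% for H3K4me3. These counts over 5 or 3 peaks are a description and were not tested, since the peaks of 1 locus share their libraries. The tagged-cell peak without H3K4me3 belongs to 1.02% of its list and was part of the choice of the locus.

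The peaks lay close together at the MYC side of the window. All 9 summits were within 125 kb of the MYC start, and the last 248 kb of the window held none. Per Mb of the window there were 11.9 H3K4me3, 7.14 tagged-cell and 2.38 untagged-cell peaks, against 4.51, 1.92 and 0.635 on chromosome 8. The window was drawn around the genes, so a higher density was set by the choice.

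Just outside the window, the lists differed in another way. Upstream, 18.9 kb before the window, H3K4me3 (16 fragments, 9.15 to 26.0) and untagged cells (12 fragments, 6.20 to 21.0) had a peak, and tagged cells had no listed peak within 2 Mb of the MYC start on that side, where 2 numbered peaks were not kept. Downstream, about 69 kb beyond the window, all 3 lists had one, with 41 fragments in untagged cells (29.4 to 55.6), 11 for H3K4me3 (5.49 to 19.7) and 4 in tagged cells (1.09 to 10.2). There the ratio of tagged to untagged fragments, not scaled to depth, was 0.0976 (0.0254 to 0.269). This was lower than at all but 0.736% of the 1902 shared sites. The tagged-cell peak had a −log10 q of 2.53, so it does not pass a −log10 q of at least 5.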

How the data were processed

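The authors deposited 1 narrowPeak list per group of 3 CUT&Tag libraries. Per the submitters' processing notes, Bowtie2 2.4.5 did the alignment, MACS2 2.1.4 the peak calling, and the builds were hg19 and dm6. Neither the settings of MACS2 nor a control library is stated in the sources used here. Peaks found in 2 or more replicates were kept from the largest replicate file, per the labels. Peak names show replicate 3 for tagged anti-HA, 2 for untagged anti-HA and 1 for H3K4me3, and their numbers follow position, so gaps count peaks not kept. At most 43.2%, 25.3% and 80.5% of the numbered peaks were listed. The authors' fold enrichment is a ratio over the caller's background, their −log10 p and −log10 q values give significance, and their integer score was not used. Titles gave the groups; for H3K4me3 replicates 2 and 3 the antibody label ends in another digit.

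Fragments and background were solved from fold = (fragments + 1) / (background + 1) and p as the Poisson tail above the fragments, which is MACS2's scoring. The next whole number also met the tolerance in 8 tagged-cell peaks, none at this locus. The lowest background was 0.248 in the tagged, 0.466 in the untagged and 0.485 in the H3K4me3 library (6 peaks at the untagged value). Overlaps needed 1 bp. Shares of peaks have exact 95% (Clopper-Pearson) intervals, and ratios of counts have the exact conditional binomial interval. Steps were tested on simulated data and run in Python 3.11.15 with scipy 1.17.1, pandas 2.3.3 and numpy 2.4.6. Bands are from circlize 0.4.16, gene order from RefSeq GRCh38.p14, of which no coordinate was used. The planned lists of MYC network genes and epithelial markers needed hg19 gene starts and were not analysed here. The window, members and comparisons were chosen with earlier results of these data known, and the named peaks are all those with a summit in the window.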

Additional observations from a re-analysis of the deposited data

How the results depend on the processing

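Leaving out a replicate was not possible because the lists hold no value per replicate. No paired analysis was possible because the result comes from no test and the columns carry no replicate. At a −log10 q of at least 5, the site in all 3 lists lost both anti-HA peaks. The untagged-cell count of 1 peak became 0 and the tagged-cell count of 3 became 2. The share of H3K4me3 peaks with an untagged-cell peak became 0%, against 11.8% of all H3K4me3 peaks under that rule. That with a tagged-cell peak became 40.0%, from 60.0%, against 38.7% of all. It was also 40.0%, against 39.1% of all, where the anti-HA summit had to lie in the H3K4me3 peak. With 100 kb added on each side the untagged count was 3. Merging peaks within 500 bp, chosen after seeing the data, left 2 of 4 H3K4me3 peaks with a tagged-cell peak, against 39.8% of all.

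The share of a list with a lower fold depends on the measure ranked. For the tagged-cell peaks at MYC, in PVT1 without H3K4me3, and in PVT1 with it, it was 0.765, 27.1 and 10.9%, and by −log10 q 24.4, 9.26 and 4.50%. By fragments, a ranking added after seeing the data, it was 93.4, 6.90 and 5.81%. For the untagged-cell peak it was 3.43%, by −log10 q 10.9% and by fragments 40.5%. For H3K4me3 at MYC (first, second), the PVT1 start and inside PVT1 (first, second) it was 0.975, 0.605, 10.9, 42.7 and 41.5%. By −log10 q these were 17.2, 12.5, 39.9, 24.3 and 13.0%, and by fragments 63.4, 56.6, 66.6, 23.8 and 10.2%. On chromosome 8 alone, the H3K4me3 values by fold were 0.606, 0.152, 11.8, 45.5 and 43.5%, the tagged-cell ones in PVT1 were 32.4 and 15.7%, and the untagged one was 0%. With an overlap of at least 50%, the locus counts stayed at 1 of 3 tagged-cell and 1 of 5 H3K4me3 peaks with an untagged-cell peak, while the shares over the whole lists were 13.8%, from 28.7%, and 6.39%, from 13.1%.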

Other observations

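The 5 tagged-cell peaks most like the one at MYC, by the Euclidean distance of percentiles of fold and width in the list of 6794, lay on other chromosomes or arms. They were at 15q22.31 (chr15:66993733-66996713, fold 3.37), 19q13.2 (chr19:41768506-41771751, fold 3.53), 8p12 (chr8:29204650-29208140, fold 2.85), 1p36.22 (chr1:10458247-10460944, fold 3.43) and 12q13.11 (chr12:47471236-47474552, fold 3.70). All 5 overlapped H3K4me3 and 2 overlapped an untagged-cell peak, against 99.0% and 28.7% of the whole list. The 5 tagged-cell peaks most like the PVT1 peak without H3K4me3 all overlapped H3K4me3, as did 99.0% of the list. An untagged-cell peak overlapped 2 of them, against 28.7% of the list. One of these, at 2p11.2 (chr2:85185496-85185812), had the same width of 317 bp, fold of 6.68 and −log10 q of 7.29. The 5 H3K4me3 peaks most like that at the PVT1 start had folds of 5.41 to 5.52 and widths of 2444 to 2525 bp. Of these, 2 carried a tagged-cell peak, against 39.5% of all H3K4me3 peaks.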
